A study of Bos taurus with 4 samples.

Results

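The hypoxia-inducible factor alpha genes are HIF3A, HIF1A and EPAS1 (which encodes HIF2 alpha), 3 of the 21861 genes counted in single-nucleus RNA sequencing of cattle fat. They were read from the rows named HIF3A (ENSBTAG00000018948), HIF1A (ENSBTAG00000020935) and EPAS1 (ENSBTAG00000003711), and all 3 were found. They were chosen by their measured UMI counts, since earlier values of these libraries showed HIF3A to be concentrated in adipocyte nuclei and uneven between them, so their levels by nucleus type and library are a description and carry no test. The 4 libraries came from intramuscular fat of animal 1 and animal 2 and from subcutaneous back fat of the same 2 animals. The animals were feedlot beef steers (numbered as cows in the sample titles) of unrecorded diet, age and breed, with no treatment and no altered gene in any group.

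HIF alpha subunits are transcription factors that are hydroxylated by oxygen-dependent enzymes and then destroyed through the VHL ubiquitin ligase. When oxygen is short they persist, pair with ARNT and switch on genes for glycolysis, blood vessel growth and oxygen delivery, so that most of their control in human and mouse cells is on the protein and is not visible in RNA. HIF1A is made in most cell types and EPAS1 is best known from endothelium. HIF3A is the least studied of them. Its splice forms include ones that oppose the others, it promotes fat cell differentiation in mouse cell culture, and its DNA methylation has been associated with body mass index in people.

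After removal of nuclei with fewer than 200 genes or with 10% or more mitochondrial UMIs (unique molecular identifiers, each 1 counted RNA molecule), 1774 and 63 nuclei remained in the intramuscular libraries of animals 1 and 2, against 874 and 6126 in the subcutaneous ones. The totals were 2717458 and 105481 UMIs for intramuscular fat, against 1138601 and 4006966 for subcutaneous fat, with median depths between 518 and 1100.5 UMIs per nucleus. Any pair of libraries shared at most 2 cell barcodes. A nucleus was called adipocyte where at least 3 of the adipocyte markers were detected and these were at least 2 times those of the next type other than muscle fibre, whose markers did not count against a nucleus. This gave 680 and 42 adipocyte nuclei in the intramuscular libraries, against 122 and 30 in the subcutaneous libraries. The median adipocyte nucleus had 8 and 7 adipocyte markers in the intramuscular libraries, against 8 and 5 in the subcutaneous libraries. The same nuclei had a median of 0 and 0 muscle fibre markers in the intramuscular libraries, against 3 and 9 in the subcutaneous libraries. In the subcutaneous library of animal 2 fibre markers thus outnumbered adipocyte markers in nuclei called adipocyte, and values of that library stand with this limit. PLIN1, which coats the fat droplet, stood at 2825 and 1591 CPM (UMIs of the gene per 1000000 UMIs of the summed nuclei) in the intramuscular adipocyte sums. The subcutaneous libraries stood apart in muscle RNA: muscle fibre markers made up 0.00258% and 0.00948% of the UMIs in the intramuscular libraries, against 3.30% and 11.8% in the subcutaneous libraries. Within the gated adipocyte nuclei the same share was 0.00192% and 0.00631% in the intramuscular libraries, against 0.815% and 3.90% in the subcutaneous libraries. The intramuscular library of animal 2 was the smallest, and its mitochondrial share was 0.0133%, against 1.24% to 1.65% in the other libraries. Its part in the results was not tested beyond leaving it out.

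HIF3A RNA was concentrated in adipocyte nuclei in the subcutaneous libraries. Its level in adipocytes was higher in both libraries of animal 2 than in both of animal 1, and within animal 1 it also differed between depots. The gated adipocyte nuclei held 24 HIF3A UMIs in the intramuscular library of animal 1 and 95 in that of animal 2, against 59 in the subcutaneous library of animal 1 and 40 in that of animal 2. As a level, this was 17.8 CPM (95% exact Poisson interval 11.4 to 26.4) in the intramuscular adipocytes of animal 1. In the intramuscular adipocytes of animal 2 it was 1199.7 CPM (971 to 1467). The subcutaneous adipocytes held 247 CPM (188 to 319) in animal 1 and 974 CPM (696 to 1326) in animal 2. These intervals, and those that follow, cover counting error only. Both libraries of animal 2 were high and both of animal 1 lower, with no overlap, and each depot had 1 high and 1 low library.

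**Figure D1:**
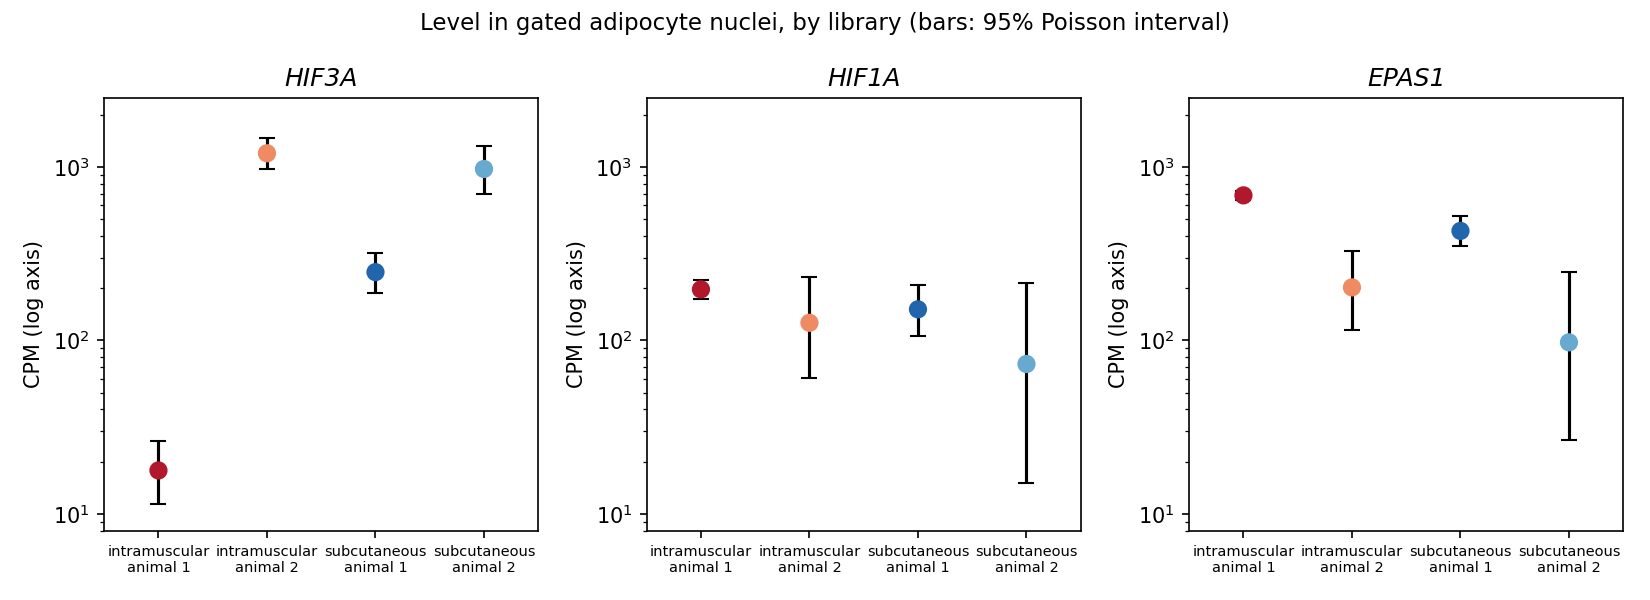
Level of HIF3A, HIF1A and EPAS1 in gated adipocyte nuclei of the 4 libraries, in CPM on a log axis. Points are summed levels and bars 95% exact Poisson intervals. HIF3A is highest in the 2 libraries of animal 2 (1199.7 and 974 CPM), while EPAS1 is highest in the 2 libraries of animal 1 (686 and 428 CPM).

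Within animal 1 the HIF3A level of intramuscular over subcutaneous adipocytes was 0.0718 (0.0427 to 0.117), and within animal 2 it was 1.23 (0.843 to 1.83). Animal 1 had less HIF3A in intramuscular adipocytes by more than the counting error, while in animal 2 the interval of the ratio included 1. Within a depot, animal 2 over animal 1 was 67.5 (42.8 to 111) in intramuscular fat and 3.94 (2.57 to 5.98) in subcutaneous fat. The difference between animals was therefore far larger in 1 depot than in the other. With 1 library for each animal and depot, the animal, the tissue piece and the handling of the library cannot be told apart.

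A gap between animals of this kind was uncommon among adipocyte genes but did not single HIF3A out. Of the 3746 genes that reached 100 CPM in at least 1 of the adipocyte sums, 18.7% were higher in both libraries of animal 2 than in both of animal 1, and 20.6% the other way round. A gap of at least 3-fold towards animal 2 was found for 26 genes, 0.694% of these. HIF3A stood 11th of them, its lowest animal 2 level being 3.94 times its highest animal 1 level. Since HIF3A was chosen with these values known, its place is given as a description.

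The share of adipocyte nuclei with a HIF3A UMI followed the level. In the intramuscular libraries 23 of 680 nuclei of animal 1 (3.38%) and 32 of 42 nuclei of animal 2 (76.2%) had one. In the subcutaneous libraries 38 of 122 nuclei of animal 1 (31.1%) and 19 of 30 nuclei of animal 2 (63.3%) had one. Because nuclei differed in depth, each was also thinned to 500 UMIs, leaving out 8 shallower adipocyte nuclei. The thinned shares were 0.441% (0.0911% to 1.28%, exact Clopper-Pearson 95% interval) and 46.2% (30.1% to 62.8%) in the intramuscular adipocytes of animals 1 and 2. In the subcutaneous adipocytes they were 11.6% (6.47% to 18.7%) and 46.2% (26.6% to 66.6%). Both libraries of animal 2 stayed above both of animal 1, while their own order was not kept, the thinned shares of animal 2 being equal.

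Inside a library the number of adipocyte nuclei with a HIF3A UMI was about what their depth alone would give. If each library's HIF3A UMIs were spread in proportion to nuclear depth, 23.4 and 30.5 nuclei would carry at least 1 in the intramuscular libraries of animals 1 and 2, close to the 23 and 32 observed. In the subcutaneous libraries the even spread gave 44.0 and 19.4 nuclei, against 38 and 19 observed. The variance of the thinned HIF3A counts over their mean was 0.997 and 1.23 in the intramuscular libraries and 1.22 and 1.18 in the subcutaneous libraries, where 1 is pure counting. The values lay at or a little above counting scatter. They rested on 3 and 27 thinned HIF3A UMIs in the intramuscular libraries, against 17 and 16 in the subcutaneous libraries. With so few HIF3A UMIs over 680 nuclei, the intramuscular library of animal 1 cannot tell an even spread from an uneven one. No nucleus of the intramuscular library of animal 1 had more than 2 HIF3A UMIs, while the maximum was 11 in that of animal 2, against 4 and 5 in the subcutaneous libraries. In the intramuscular library of animal 2, 6 of the 42 nuclei held at least 50% of the UMIs. In the subcutaneous library of animal 1 it was 12 of 122.

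**Figure D2:**
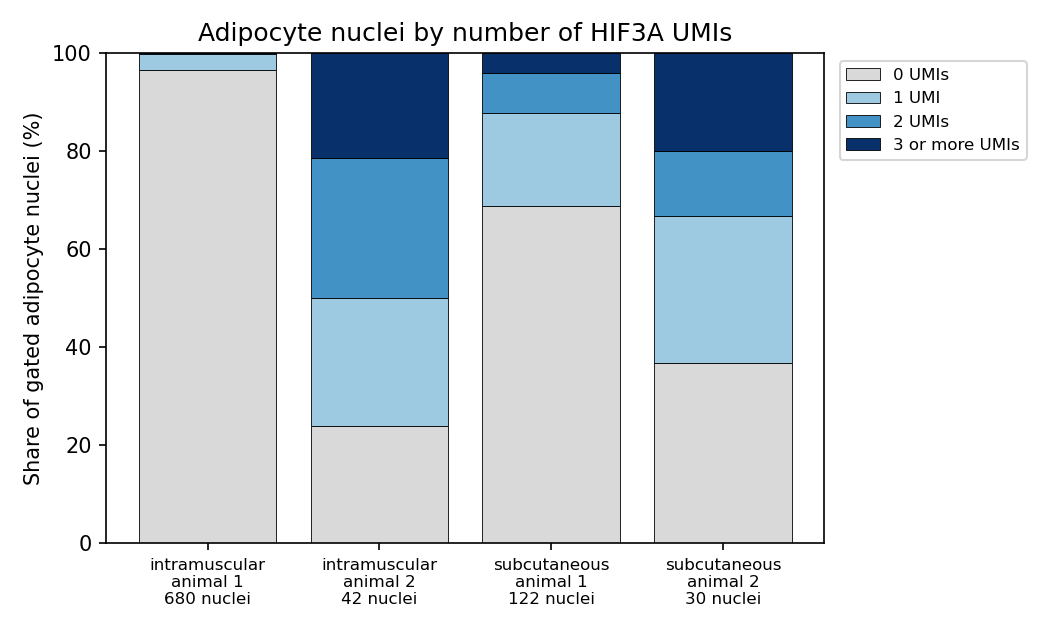
Share of gated adipocyte nuclei (percent, from 0 to 100) with 0, 1, 2 and 3 or more HIF3A UMIs in each of the 4 libraries, not corrected for depth. Nuclei with 0 UMIs fill nearly the whole bar in the intramuscular library of animal 1, where 3.38% had a UMI, and a minority in both libraries of animal 2.

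Deep and shallow nuclei gave the same picture. In the intramuscular adipocytes of animal 1 the level was 25.2, 17.2 and 17.3 CPM in nuclei under 1000, from 1000 to under 2000, and from 2000 UMIs. In those of animal 2 it was 1464, 1374 and 1069 CPM. The subcutaneous adipocytes of animal 1 held 188, 344 and 218 CPM and those of animal 2 held 977, 1028 and 876. Within each library the intervals of the 3 depth classes overlapped.

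Adipocyte clusters, built without the 3 genes, did not divide HIF3A in the subcutaneous library of animal 1, the only library with at least 20 nuclei in both. Nearly all intramuscular adipocyte nuclei of animal 1 fell in cluster 4, with CYP2B6, PHLDA1 and PCK1 among its leading genes, and those of animal 2 in cluster 7, led by TENM4, PLIN4 and NSMF, with PPP5C also among its leading genes. The subcutaneous library of animal 1 held 71 nuclei in each. There HIF3A stood at 250 CPM (185 to 332) in cluster 4 and 227 CPM (137 to 354) in cluster 7, which do not differ beyond counting error. Within cluster 4 the level was 22.9 CPM in intramuscular nuclei of animal 1, against 250 CPM in subcutaneous nuclei of the same animal. Within cluster 7 it was 1207 CPM in intramuscular nuclei of animal 2, against 227 and 1074 CPM in subcutaneous nuclei of animals 1 and 2. The level thus differed between the depots of animal 1 within cluster 4. Within cluster 7 the subcutaneous library of animal 1 lay below both libraries of animal 2, whose intervals overlapped. The clusters themselves could be set side by side only in the subcutaneous library of animal 1.

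**Figure D3:**
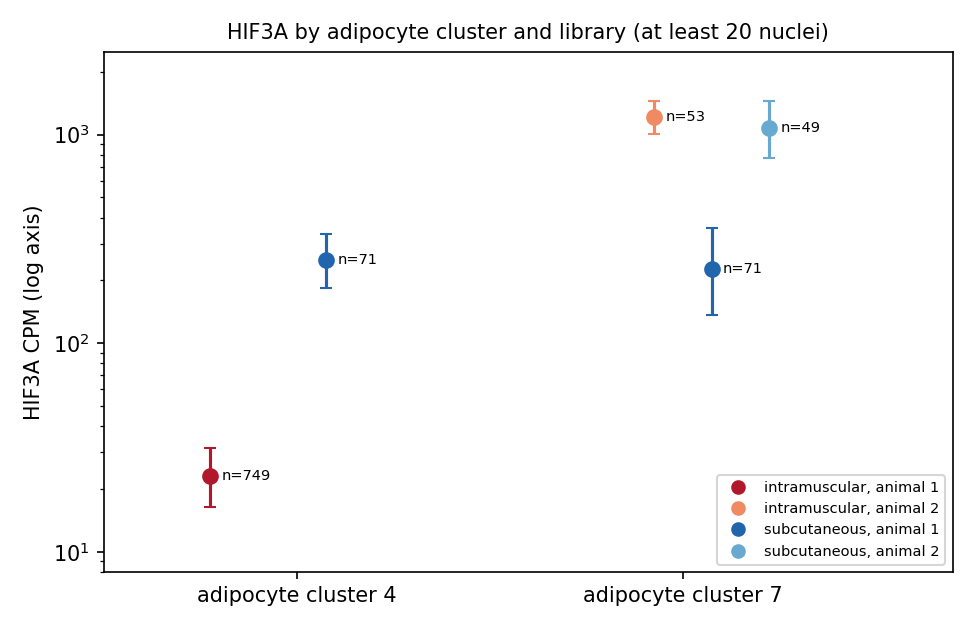
HIF3A level (CPM, log axis) in the 2 adipocyte clusters, for libraries with at least 20 nuclei in the cluster. Bars are 95% exact Poisson intervals and n is the number of nuclei. The subcutaneous library of animal 1 sits at 250 and 227 CPM in the 2 clusters, while libraries within a cluster lie far apart.

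Finer groups of the gated adipocytes, made within the intramuscular library of animal 1, had HIF3A levels whose intervals all overlapped that of the highest group. HIF3A ranged from 0 of 85353 UMIs (which allows 43.2 CPM) to 55.9 CPM (24.2 to 110), the highest being in the group led by NNAT, MME and GPAT3. It rested on 8 UMIs there, and its group had the highest share of adipocyte marker UMIs (2.34%). HIF1A was divided otherwise: it was at 401 CPM (313 to 506) in a group led by CSF1, NFE2L3 and SDC4, and between 105 and 192 CPM in the other 4 groups. EPAS1 lay between 572 and 1125 CPM. In the subcutaneous library of animal 1 the 3 finer groups held 211 to 286 HIF3A CPM with overlapping intervals.

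Outside adipocytes HIF3A was at or near 0. The other gated nuclei (progenitor, endothelial, mural, immune, satellite and fibre types) held 2 HIF3A UMIs of 329528 in the intramuscular library of animal 1. In the subcutaneous libraries they held 0 of 460813 in animal 1 and 11 of 3455612 in animal 2, and the intramuscular library of animal 2 had a single such nucleus. The adipocyte level over that of the other gated types was 306 (154 to 661) in the subcutaneous library of animal 2. In that of animal 1, where the other nuclei held 0 HIF3A UMIs, the interval of the ratio had a lower limit of 29.96. Taking 3 counts over the other nuclei as the floor gave a ratio of 38.0, which leaves out the counting error of the adipocyte level. In the intramuscular library of animal 1 the ratio was 2.93 with an interval from 0.727 to 25.5. There the adipocyte level was not separable from that of the other gated nuclei at this depth. These left out the 726 nuclei given no type. The adipocyte clusters of that library held 39 of its 42 HIF3A UMIs, with 22.9 CPM (16.3 to 31.4) in cluster 4. Nuclei outside both the adipocyte gate and these clusters held 3 HIF3A UMIs of 956126 (3.14 CPM). After thinning, 3 of 680 adipocyte nuclei and 1 of 368 other gated nuclei of that library had a UMI. In the subcutaneous library of animal 2 it was 12 of 26 adipocyte nuclei against 2 of 2854 others.

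The HIF3A UMIs not in gated adipocytes were mostly in nuclei that missed the gate. In the intramuscular libraries the gated adipocytes held 57.1% and 77.2% of all HIF3A UMIs, against 77.6% and 57.1% in the subcutaneous libraries. These nuclei held 49.7% and 75.1% of all UMIs in the intramuscular libraries, against 20.9% and 1.02% in the subcutaneous libraries. The HIF3A share was thus near the share of all UMIs in both intramuscular libraries and above it in the subcutaneous ones. Of the HIF3A UMIs in nuclei given no type, 15 of 16 and 27 of 28 fell in the adipocyte clusters in the intramuscular libraries, against 9 of 17 and 10 of 19 in the subcutaneous libraries. Fibre nuclei of the subcutaneous library of animal 2 held 10 UMIs among 5049 nuclei, a level of 3.30 CPM (1.58 to 6.07), and none of these UMIs lay in an adipocyte cluster.

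**Figure D4:**
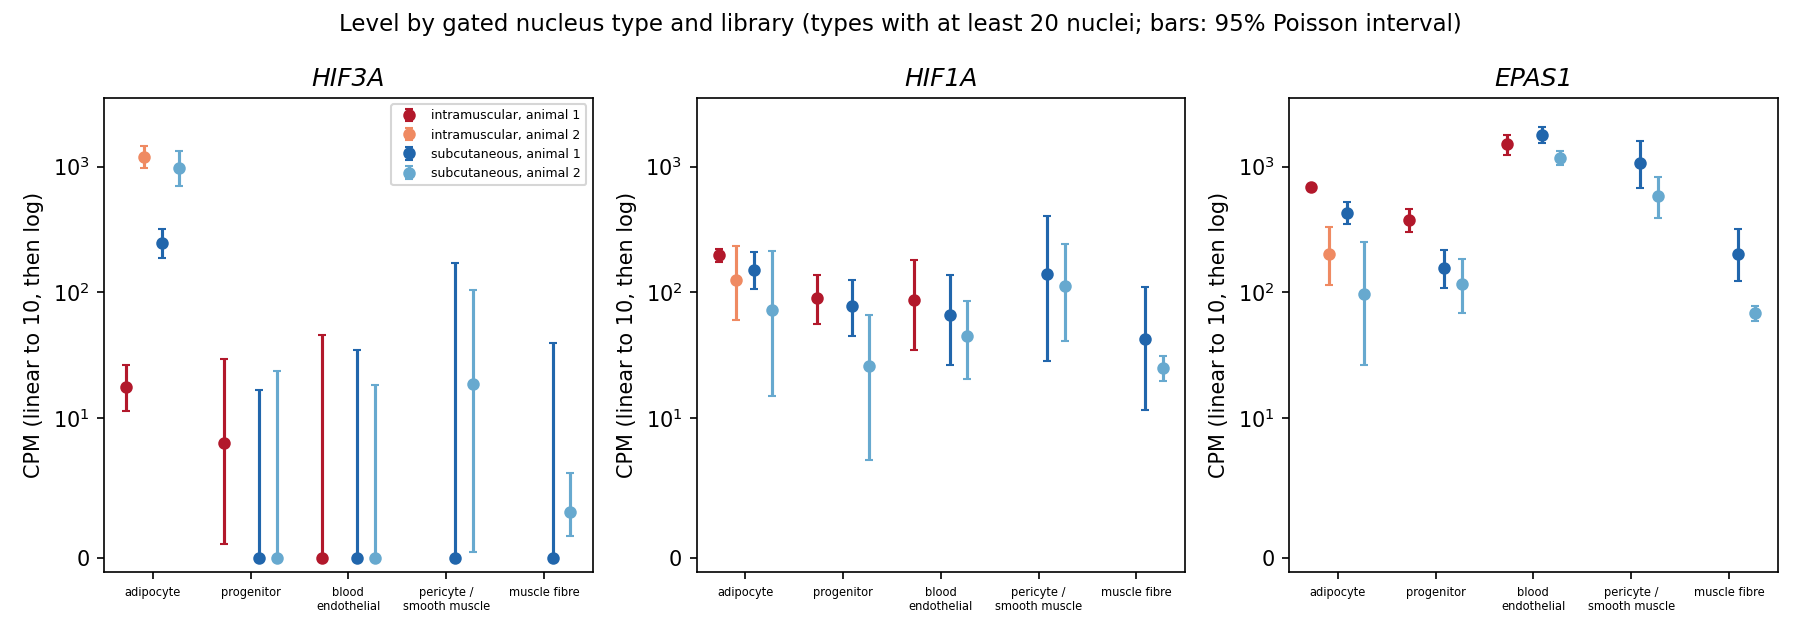
Level of HIF3A, HIF1A and EPAS1 by gated nucleus type and library, for types with at least 20 nuclei, in CPM (axis linear to 10, then log). Bars are 95% exact Poisson intervals. HIF3A is at or near 0 outside adipocytes, HIF1A is detected in all types shown, and EPAS1 peaks in blood endothelial nuclei (1499, 1776 and 1166 CPM).

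HIF1A was spread over the nucleus types. In adipocytes it stood at 197 CPM (174 to 222) and 126 CPM (60.6 to 232) in the intramuscular libraries of animals 1 and 2. In subcutaneous adipocytes it was 151 CPM (106 to 209) in animal 1 and 73.1 CPM (15.1 to 214, from 3 UMIs) in animal 2. Both libraries of animal 1 were above both of animal 2, but the intervals overlapped. In the intramuscular library of animal 1 adipocytes were highest, with progenitors at 90.3 and blood endothelial nuclei at 87.4 CPM, neighbours that do not differ beyond counting error. In the subcutaneous library of animal 1 the order was adipocyte, pericyte or smooth muscle (139), progenitor (78.0), blood endothelial (66.5) and fibre (42.8). For animal 2 the subcutaneous order was pericyte or smooth muscle (112), adipocyte (73.1), blood endothelial (45.2), progenitor (25.9) and fibre (25.1). Adjacent levels had overlapping intervals in both libraries. The 17 macrophage nuclei of the subcutaneous library of animal 1, too few for the ordering, held 9 UMIs or 467 CPM (213 to 886). In that of animal 2 the 8 macrophage nuclei held 1 UMI or 91.3 CPM (2.31 to 509).

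EPAS1 marked the vessels. Blood endothelial nuclei had 1499 CPM (1243 to 1792) in the intramuscular library of animal 1, against 1776 CPM (1530 to 2049) and 1166 CPM (1021 to 1326) in the subcutaneous libraries of animals 1 and 2. It was the highest type in all 3 libraries with at least 20 such nuclei. Pericyte or smooth muscle nuclei followed in the subcutaneous libraries, with 1068 CPM (677 to 1603) in animal 1 and 579 CPM (393 to 822) in animal 2. In adipocytes EPAS1 stood at 686 CPM (643 to 732) and 202 CPM (115 to 328) in the intramuscular libraries of animals 1 and 2. The subcutaneous adipocytes held 428 CPM (349 to 519) in animal 1 and 97.4 CPM (26.5 to 249, from 4 UMIs) in animal 2. Here both libraries of animal 1 were high, the opposite of HIF3A, with the lowest animal 1 level 2.12 times the highest animal 2 level. A gap of at least 2-fold in that direction was found for 177 of the 3746 adipocyte genes (4.73%), among which EPAS1 was 149th.

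Adipocyte nuclei with and without a HIF3A UMI were compared for the other 2 genes. In the intramuscular library of animal 1 HIF1A stood at 194 CPM in nuclei with a HIF3A UMI and 197 CPM in those without. In the subcutaneous library of animal 1 it stood at 127 and 164 CPM. EPAS1 stood at 522 CPM with and 695 CPM without HIF3A in the intramuscular library of animal 1, and at 417 and 434 CPM in the subcutaneous library of animal 1. In the libraries of animal 2 the nuclei without HIF3A held at most 2 UMIs of either gene. In the intramuscular library of animal 1, 183 nuclei had HIF1A where an even spread gives 209, and 412 had EPAS1 where it gives 462. For animal 1 the subcutaneous library had 27 nuclei with HIF1A, against 29.9 under an even spread, and 55 with EPAS1, against 63.4, shortfalls much like that of HIF3A there.

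No depot difference passed the test for any of the 3 genes. Adipocyte HIF3A averaged 609 ± 836 CPM in intramuscular fat and 611 ± 514 in subcutaneous fat (SD, n = 2 libraries each). The log2 fold change of intramuscular over subcutaneous was -0.040 (SE 1.32, adjusted p = 0.9998 by the quasi-likelihood test of edgeR, Benjamini-Hochberg adjusted over 3921 genes). Adipocyte HIF1A averaged 162 ± 49.9 in intramuscular fat and 112 ± 55.1 in subcutaneous fat (SD, n = 2 each). Its log2 fold change was 0.57 (SE 0.69), with the same adjusted p by edgeR. Adipocyte EPAS1 averaged 444 ± 342 in intramuscular fat and 263 ± 234 in subcutaneous fat (SD, n = 2 each), a log2 fold change of 0.84 (SE 0.91), again with that adjusted p by edgeR. Of all genes tested in adipocytes 1.25% were called. Leaving out the intramuscular library of animal 2 turned the HIF3A value into a call at -4.74 (adjusted p = 1.42e-06 by edgeR), where the remaining intramuscular library is assumed to vary like the subcutaneous ones. With animal as a block it was -1.64 (adjusted p = 0.997).

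Over all nuclei of a library HIF3A had a log2 fold change of 3.16 (SE 1.45, adjusted p = 0.462 by edgeR over 11143 genes, 1.53% of which were called). The levels were 15.5 and 1166 CPM in the intramuscular libraries, against 66.7 and 17.5 CPM in the subcutaneous libraries, so that 1 library was high and 3 were low. Adipocytes made up 38.3% and 66.7% of the nuclei in the intramuscular libraries, against 13.96% and 0.490% in the subcutaneous libraries, and the part of this in the sum was not tested. Without the intramuscular library of animal 2 the value was -1.70, and with animal as a block it was 1.24. HIF1A and EPAS1 over all nuclei were at 0.46 (SE 0.83) and -0.10 (SE 1.19). In progenitor nuclei, with 1 intramuscular and 2 subcutaneous libraries, EPAS1 was at 373 CPM in intramuscular fat and 156 and 117 CPM in subcutaneous fat, a log2 fold change of 1.28 (SE 0.66, adjusted p = 0.364 by edgeR, with 6.12% of 5653 genes called). HIF1A in progenitors was at 0.60 (SE 0.70, adjusted p = 0.828 by edgeR). In blood endothelial nuclei EPAS1 was at 0.06 (SE 0.65, adjusted p = 0.984 by edgeR, with 5.56% of 3181 genes called). HIF3A was under the count filter in both types, and HIF1A in the endothelial one.

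The machinery around the HIF proteins was detected in adipocytes in part. Of the regulators and partners 12 reached 100 CPM in at least 1 adipocyte sum, while VHL had 1 UMI and ARNT2 had 7, all in the intramuscular library of animal 1. Of the 12, 3 were higher in both libraries of animal 2 and 2 in both of animal 1, near the 18.7% and 20.6% found over all genes. By depot, 4 were higher in both subcutaneous libraries and 1 in both intramuscular ones, against 18.3% and 12.9% over all genes. Of 20 regulators and partners 19 were among the counted genes and 11 could be tested. edgeR called 0 of them between depots, with 0 at an unadjusted p under 0.05 and 0 by DESeq2, and their median log2 fold change was -0.25, against 0.06 over all genes tested. CITED2, which competes with HIF proteins for the coactivator CREBBP, stood at 742 and 152 CPM in the intramuscular libraries, against 608 and 487 CPM in the subcutaneous libraries. CREBBP itself was at 124 and 240 CPM in intramuscular adipocytes, against 189 and 268 CPM in subcutaneous ones. HSP90AA1, a chaperone that stabilises HIF1 alpha, was at 498 and 126 CPM in intramuscular adipocytes, against 323 and 511 CPM in subcutaneous ones. CREBBP was higher in both libraries of animal 2, and CITED2 and HSP90AA1 were not. RACK1, which promotes oxygen-independent loss of HIF1 alpha in human cells, lay between 151 and 222 CPM in the 4 libraries. EGLN1, the main oxygen-sensing prolyl hydroxylase, was at 89.5 and 50.5 CPM in intramuscular adipocytes, against 155 and 170.5 CPM in subcutaneous ones. CUL2, a scaffold of the VHL ligase, was at 42.9 and 50.5 CPM in intramuscular adipocytes, against 138 and 73.1 CPM in subcutaneous ones. USP20, a deubiquitinase of HIF1 alpha in human cells, was at 118 and 316 CPM in intramuscular adipocytes, against 130 and 48.7 CPM (2 UMIs) in subcutaneous ones.

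Known hypoxia-inducible targets were also tested in adipocytes. Of 40 genes 39 were counted and 23 tested. edgeR called 0 between depots, with 4 at an unadjusted p under 0.05 and 1 call by DESeq2 (LDHA), and the median log2 fold change was 0.41. Over all 3921 genes tested in adipocytes 3.52% had an unadjusted p under 0.05, DESeq2 called 1.30% and the median was 0.06. ADM, a vessel-dilating peptide, was abundant, at 9903 and 9358 CPM in intramuscular adipocytes, against 4928 and 2192 CPM in subcutaneous ones. VEGFA, the endothelial growth factor, stood at 947 and 2766 CPM in intramuscular adipocytes, against 268 and 779 CPM in subcutaneous ones. ANGPTL4, an inhibitor of lipoprotein lipase, was at 585 and 1099 CPM in intramuscular adipocytes, against 327 and 365 CPM in subcutaneous ones. For ADM, VEGFA and ANGPTL4 the lowest intramuscular level was above the highest subcutaneous level. So it was for 8 of the 21 targets that reached 100 CPM, against 12.9% of all such genes, and 4 of 21 had the opposite split, against 18.3%. VEGFA also differed between animals within each depot. The glycolytic enzymes ALDOA, LDHA and TPI1 had that opposite split. Others of the list did not, such as PFKFB3, a regulator of glycolysis picked after its values were seen, at 155 and 429 CPM in intramuscular adipocytes, against 16.8 and 146 CPM in subcutaneous ones. ALDOA was at 499 and 139 CPM in intramuscular adipocytes, against 730 and 5747 CPM in subcutaneous ones. LDHA was at 25.9 and 0 CPM in intramuscular adipocytes, against 88.1 and 901 CPM in subcutaneous ones, and TPI1 was at 93.2 and 37.9, against 201 and 1047 CPM. Fibre nuclei of the subcutaneous library of animal 2 held 18168, 2405 and 2930 CPM of ALDOA, LDHA and TPI1, and its adipocyte nuclei carried 3.90% fibre marker UMIs. The part of that RNA in these levels was not tested.

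Glucocorticoid response genes were taken as another list. All 10 were counted and 8 tested. edgeR called 0, with 1 at an unadjusted p under 0.05 and 0 by DESeq2, and the median log2 fold change was 1.44, with 7 of 8 above 0, against 53.2% above 0 and a median of 0.06 over all genes tested. PDK4, which slows glucose oxidation, was at 503 and 1755 CPM in intramuscular adipocytes, against 113 and 317 CPM in subcutaneous ones. DUSP1, a phosphatase of stress kinases, was at 2780 and 391 CPM in intramuscular adipocytes, against 520 and 292 CPM in subcutaneous ones. NR3C1, the glucocorticoid receptor, lay between 265 and 742 CPM. TSC22D3, an anti-inflammatory target of that receptor, was at 357 and 366 CPM in intramuscular adipocytes, against 164 and 0 CPM in subcutaneous ones.

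The genes with the pattern most like HIF3A were sought, as a description, over 14 sums of a library and a type with at least 20 nuclei. Pearson's r of log2(CPM + 10) was taken for the 5443 other genes that reached 100 CPM in at least 1 sum. GAS2L2 (0.956), PPP5C (0.947), OSBPL11 (0.945), FGFRL1 (0.938) and ASGR2 (0.928) came first, while HIF1A was at 0.39 and EPAS1 at -0.34. GAS2L2 and FGFRL1 passed that limit only in the intramuscular adipocytes of animal 2, where HIF3A was highest, with 9 UMIs each. Their place in the order thus partly follows from the limit. The sums share libraries and depth, and 4 of the 5 genes rested on at most 15 UMIs in each animal 2 adipocyte sum. PPP5C, which encodes a serine/threonine phosphatase, was the exception. Its level was 24.4 and 909 CPM in the intramuscular adipocytes of animals 1 and 2, against 201 and 755 CPM in the subcutaneous ones. In the other sums it lay between 0 and 56.0 CPM. HIF3A UMIs over PPP5C UMIs in adipocytes came to 0.727 and 1.32 in the intramuscular libraries, against 1.23 and 1.29 in the subcutaneous libraries. PPP5C stood 12th among the genes higher in both libraries of animal 2, next to HIF3A.

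**Figure D5:**
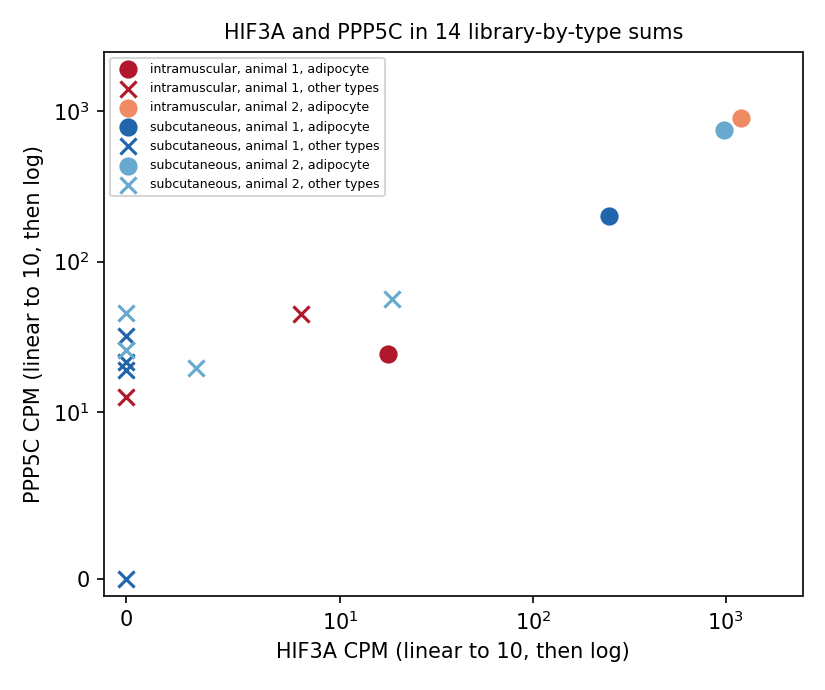
HIF3A against PPP5C level (CPM, both axes linear to 10, then log) in 14 sums of a library and a nucleus type. Circles are adipocyte sums and crosses other types. The adipocyte sums run from 17.8 and 24.4 CPM to 1199.7 and 909 CPM, while PPP5C stays at or under 56.0 CPM in other types.

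PPP5C and HIF3A are neighbours in the RefSeq gene table of ARS-UCD2.0, where they do not overlap. That build is not the one the counts were made on, and the table gives no strand, so whether reads of 1 gene were counted to the other was not tested. HIF1A overlaps a long non-coding RNA in the same table, with the same limit. Within the subcutaneous library of animal 1 PPP5C stood at 370 CPM in adipocyte nuclei with a HIF3A UMI and 105 CPM in those without. In that of animal 2 PPP5C was seen in 13 of 19 nuclei with HIF3A and 0 of 11 without. Those without were shallow, with 7766 UMIs of all genes, against 33298 in those with HIF3A. In the intramuscular library of animal 2 the PPP5C levels with and without HIF3A were 895 CPM and 1023 CPM (9 UMIs). In that of animal 1 they were 29.8 CPM (2 UMIs) and 24.1 CPM. After thinning, 1 of 14 nuclei with HIF3A and 12 of 107 without had PPP5C in the subcutaneous library of animal 1. These shares were 7.14% (0.181% to 33.9%) and 11.2% (5.93% to 18.8%). With so few nuclei they cannot decide whether the 2 genes co-occurred there at equal depth. For animal 2 the subcutaneous library had 3 of 12 nuclei with and 2 of 14 without.

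Adipocyte nuclei of animal 1 with and without a HIF3A UMI were also set side by side across 716 genes, after thinning to 1000 UMIs. There were 8 nuclei with and 562 without in the intramuscular library, and 24 with and 68 without in the subcutaneous library. Genes higher with HIF3A in both were LAPTM4A, TUBGCP2, DDHD2, TUT7, HSBP1 and MGP. Of these HSBP1, a regulator of heat shock factor, had the most UMIs, with log2 ratios of 0.72 and 0.78. Genes lower with HIF3A in both were RPL34, IGFBP5, ARL6IP1, KIF21A, THRSP and FN1. THRSP, a regulator of fat synthesis, had log2 ratios of -1.30 and -0.95, from 4 and 6 UMIs in nuclei with HIF3A. Being the extremes of many genes in few nuclei, these are named as a description only.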

How the data were processed

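Nuclei were loaded on 10x Genomics 3' kits (chemistry 3.1), 1 library per animal and depot, per the labels' protocols. Counting used Cell Ranger 6.0.1, per the file headers, and build ARS-UCD1.2, per the submitters' processing notes. The annotation, the strand setting and the use of intronic reads are not stated there. Each deposited matrix gives unnormalised UMI counts by gene and barcode. The members, gene lists and gates were chosen with earlier results of these data known.

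Nuclei with at least 200 genes and under 10% mitochondrial UMIs were kept; no doublet caller was run. Types came from marker panels (4 panel genes were not counted). Levels are CPM, the summed UMIs of a gene per 1000000 UMIs. Depots were compared on sums per library with edgeR 4.0.16 (quasi-likelihood, TMM, Benjamini-Hochberg, threshold 0.05) and DESeq2 1.42.0 as an alternative, and edgeR was tested on simulated data. Clusters used scanpy 1.11.5 (2000 variable genes, 30 components, 15 neighbours, resolution 1.0). Named genes were the 3 members, the 4 most abundant and the 3 with the smallest p of each list, the 5 most like HIF3A, and up to 6 per direction by HIF3A detection. Same-numbered libraries came from the same animal per the titles; their deviations from the depot means correlated at r = -0.14 over all nuclei (3703 genes) and 0.0537 in adipocytes (3746 genes). With 2 libraries per depot, p-values measure the spread between these libraries.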

Additional observations from a re-analysis of the deposited data

Results flagged for a closer look

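The ratio of HIF3A between the depots lay on opposite sides of 1 in the 2 animals, which was not tested, since each animal gave 1 library per depot. In gated adipocyte nuclei the log2 ratio of intramuscular over subcutaneous fat was -3.80 in animal 1 and 0.30 in animal 2, where the counting interval of the ratio included 1. Over all nuclei it was -2.11 in animal 1 and 6.06 in animal 2.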

How the results depend on the processing

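Adipocyte levels of the 3 genes were compared with those under another gate, clusters, gene minimum or mitochondrial limit. In all 60 comparisons they stayed within the counting interval of the main setting. Of the levels of listed genes and PPP5C 205 did so and 11 moved. This is a weak check, since the settings share many nuclei and intervals from few UMIs are wide. Leaving out 1 library gave, over all nuclei, log2 fold changes of -1.70 to 4.22 for HIF3A, 0.06 to 1.12 for HIF1A and -1.39 to 0.67 for EPAS1, with 24 to 411 genes called (170 with all). In adipocytes it gave -4.74 to 1.26 for HIF3A, -0.19 to 1.17 for HIF1A and -0.72 to 2.25 for EPAS1, with 34 to 284 called (49 with all). EPAS1 over all nuclei turned to 0.30 without scaling, and adipocyte HIF3A to 0.050 with a gate of at least 2 markers. Without the count filter 444 genes were called over all nuclei and 95 in adipocytes, more genes being tested, and DESeq2 called 346 over all nuclei. The cause of the other changes was not tested. With animal as a block HIF3A was at 1.24 over all nuclei (199 genes called) and -1.64 in adipocytes (42 called), and no call of the 3 genes changed. Crossing the animal numbers between depots, added after seeing the data, gave 589 calls over all nuclei.

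The share of adipocyte nuclei with HIF3A depended on depth. Thinned to 1000 UMIs it was 1.40% and 58.3% in the intramuscular libraries, against 26.1% and 81.2% in the subcutaneous libraries, so that the order of the 2 libraries of animal 2 turned. Thinned to 300 UMIs it was 29.3% in the intramuscular library of animal 2, against 20% in the subcutaneous library of animal 2. In that subcutaneous library the unthinned share was 43.4% with a gate of at least 2 markers and 81.8% among nuclei with at least 500 genes. The depot test of progenitor and endothelial nuclei could not be repeated without each library, as this left 1 library per depot or 1 depot. The 30 and 42 adipocyte nuclei of animal 2 limit the precision for HIF1A and EPAS1 there.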
